A study of Mus musculus with 9 samples.

Results

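The 9 genes described here across the cultures belong to the Hedgehog pathway: the co-receptors Gas1, Cdon and Boc, the receptor Ptch1, the signal transducer Smo, the transcription factors Gli1, Gli2 and Gli3, and the ligand-binding inhibitor Hhip. They were named by their place in the pathway, with earlier results of these data known. Every probe-set, the set of short probes that reads 1 transcript on an Affymetrix array, whose mouse gene symbol was one of the 9 was taken. This gave 24 of 45101 probe-sets, for 9 of the 18194 genes with a named probe-set. Boc, Gas1, Gli3, Ptch1 and Smo had 3 probe-sets each, Hhip had 4, Cdon and Gli2 had 2 each, and Gli1 had 1. None of the 24 was shared with a second gene symbol. Of the 24, 13 had a mean log2 signal above 4 over the arrays and are called bright, and 11 lay below it.

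Primary mouse embryo fibroblasts (MEFs) are a mixed population of connective tissue cells that divide for a limited number of passages. They came from 13.5 day embryos of the mixed strain C57BL/6J x 129Sv/J and were grown in 10% serum with no other treatment. For its growth assays the study used a 3T3 protocol, in which cells are counted and plated again at a fixed density and interval. The 3 groups were Tgif1 -/- cells at passage 3 (Tgif1 null), wild type cells at passage 3 (P3) and wild type cells at passage 5 (P5), each with 3 independent cultures and 1 array per culture. Tgif1 null cells at passage 5 were not analysed here, so genotype was compared at passage 3 and passage was compared in wild type cells. Whether cultures came from separate embryos is not given in the sources used here, and p-values measure the spread between these cultures.

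Hedgehog ligands are secreted proteins that bind Ptch1 together with a co-receptor, Gas1, Cdon or Boc. Binding relieves the block that Ptch1 places on Smo, Smo enters the primary cilium, and the Gli factors then act as activators rather than repressors of target genes, of which Gli1, Ptch1 and Hhip are the best known. Loss of Hedgehog signalling in the early forebrain leads to holoprosencephaly, a failure of the brain to divide into hemispheres, and human variants of TGIF1 and of several genes of this pathway have been linked to that disorder.

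Values are log2 signals, and a difference of 1 on that scale is a 2-fold difference in signal. The lowest value on the arrays was 2.23, and a probe-set at it cannot show a decrease, while one near it can show only a small one. Tgif1 itself had a log2 signal of 2.48, 3.21 and 2.50 on the 3 null arrays, 9.82, 9.95 and 9.72 on the P3 arrays and 10.06, 10.07 and 10.18 on the P5 arrays, which fits the labels. The position of its probes in the gene was not looked up. Correlations between replicate arrays were from 0.996 to 0.999 across probe-sets. Of 16 fibroblast markers, among them the collagens Col1a1 and Col1a2, 15 in the null, 15 in P3 and 16 in P5 had a mean log2 signal above 4. "Rose" and "fell" are used where limma's moderated test of a comparison gave an adjusted p under 0.05 over all 45101 probe-sets. The 3 comparisons share arrays, so their values are given side by side and are not independent.

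The promoter windows of Gas1, Gli2 and Hhip, the genes with the widest range of group means among the 9, are shown for context. Each runs from 250 bases before to 50 bases after the annotated start in RefSeq, build GRCm38.p6, on the minus strand for all 3 genes. Gas1 is at chr13:60177486-60177785, Gli2 at chr1:119053570-119053869 and Hhip at chr8:80057959-80058258. Capitals mark CG dinucleotides, the sites of DNA methylation in mammals.
Gas1: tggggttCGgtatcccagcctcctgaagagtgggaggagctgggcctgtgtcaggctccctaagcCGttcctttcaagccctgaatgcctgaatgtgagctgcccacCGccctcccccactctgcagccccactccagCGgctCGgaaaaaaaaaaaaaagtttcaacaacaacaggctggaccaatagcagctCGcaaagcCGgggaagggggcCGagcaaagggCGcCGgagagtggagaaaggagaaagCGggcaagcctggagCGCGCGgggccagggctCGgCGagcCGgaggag
Gli2: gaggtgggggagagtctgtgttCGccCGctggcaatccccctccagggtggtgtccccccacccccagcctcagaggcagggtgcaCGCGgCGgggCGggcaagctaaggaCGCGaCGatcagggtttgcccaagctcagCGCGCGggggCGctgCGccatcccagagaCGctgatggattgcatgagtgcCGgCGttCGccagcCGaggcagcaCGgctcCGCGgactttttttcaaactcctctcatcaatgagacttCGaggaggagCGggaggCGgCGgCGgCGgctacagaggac
Hhip: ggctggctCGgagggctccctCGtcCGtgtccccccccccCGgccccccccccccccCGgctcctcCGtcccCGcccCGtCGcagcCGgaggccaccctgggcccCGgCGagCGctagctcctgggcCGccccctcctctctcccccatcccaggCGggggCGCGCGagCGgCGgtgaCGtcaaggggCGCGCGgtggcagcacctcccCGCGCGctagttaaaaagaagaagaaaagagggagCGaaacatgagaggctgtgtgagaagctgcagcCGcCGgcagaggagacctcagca

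Windows were found for 7 of the 9 genes, and Boc and Gli1 had no entry in the table. The Gas1 window holds 17 CG dinucleotides at 62.3% G and C, the Gli2 window holds 28 at 67.3%, and the Hhip window holds 30 at 73.7%. The Ptch1 window, at chr13:63565686-63565985, was richest with 47 CG dinucleotides and 76.3% G and C, and the Cdon window, at chr9:35451826-35452125, was poorest with 3 and 44.7%. The medians over all 32851 windows were 7 CG dinucleotides and 52.7%. Of the 7 genes only Cdon lay below both medians. The Gli site GACCACCCA, on either strand, is in 0.253% of all windows, or in 6.74% with up to 1 mismatch, and TGACAG, a site bound by Tgif proteins, is in 19.2%. None of these was found in the 7 windows, which says only that these letters are not there. CG content was counted after the expression values had been seen, and no methylation was measured.

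Between Tgif1 null and wild type MEFs at passage 3, Gas1 and Gli2 fell, and the other members did not pass the test. Gas1 was lower by 2.11-fold and Gli2 by 1.5-fold in the null. In all, 2 of the 24 probe-sets were called, beside 1.59% of all probe-sets. Of the 13 bright probe-sets 2 were called, beside 3.68% of all 18225 probe-sets above a mean log2 signal of 4. Both were lower in the null, whereas 1.6% of all 18225 were called and lower.

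Between passages 3 and 5 of wild type MEFs, Gli2, Hhip, Cdon and Ptch1 fell, by 1.32-fold to 2.58-fold. These were 5 of the 24 probe-sets, both of Gli2 among them, beside 8.62% of all probe-sets. Passage changed many genes: 20.2% of all bright probe-sets were called, and 10.4% of all bright probe-sets were called and lower. Of the 13 bright member probe-sets 5 were called, all of them lower. Between Tgif1 null P3 and wild type P5, Gas1 was lower and Hhip was higher in the null. That made 2 of 24 probe-sets, beside 7.22% of all, and 2 of 13 bright ones, beside 16.6%.

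**Figure D1:**
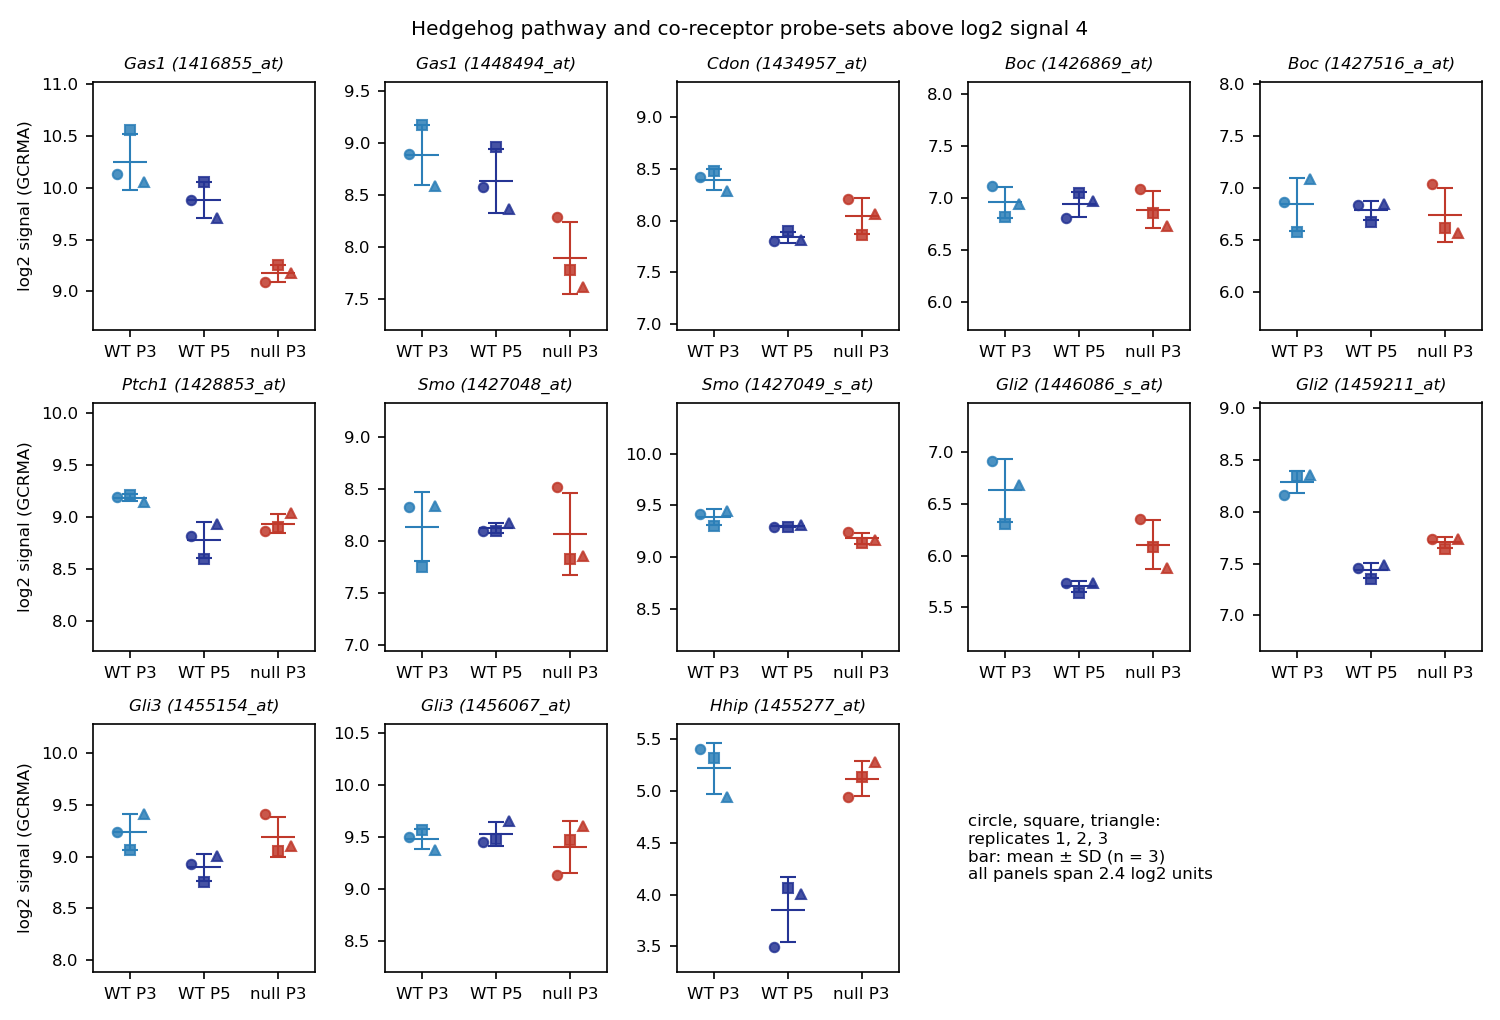
The log2 signal of the 13 bright probe-sets on each array, with the mean and SD of the 3 cultures of each group (WT, wild type; null, Tgif1 null); each panel spans an equal log2 range around its own level, so heights are comparable as differences and not as levels. Gas1 is lowest on the null arrays, Hhip is lowest on the P5 arrays, and both Gli2 probe-sets are highest on the P3 arrays.

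Gas1 encodes a lipid-anchored surface protein that binds Hedgehog ligands, first found in fibroblasts as a growth arrest gene. Its brightest probe-set, 1416855_at, had a log2 signal of 9.09, 9.25 and 9.18 in the null, 10.13, 10.56 and 10.06 in P3 and 9.88, 10.05 and 9.71 in P5. All 3 null arrays lay below all 6 wild type arrays, whereas the highest P5 array (10.05) was just below the lowest P3 array (10.06). Gas1 fell by 1.07 (SE 0.15, 95% interval -1.44 to -0.71, adjusted p = 0.0299) in the null against P3, and by 0.70 (SE 0.15, adjusted p = 0.0446) against P5. The difference between P5 and P3, -0.37 (SE 0.15, adjusted p = 0.258), did not pass the test.

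The second Gas1 probe-set, 1448494_at, read 8.28, 7.78 and 7.62 in the null, 8.90, 9.17 and 8.59 in P3 and 8.58, 8.97 and 8.36 in P5. Its null arrays again lay below every wild type array. The difference from P3 was -0.99 (SE 0.25, 95% interval -1.60 to -0.39), of the size seen with the first probe-set, but its spread was the widest among the bright members and the adjusted p was 0.162. Null array 1 was the highest of the null arrays, and without it the difference was -1.19 (adjusted p = 0.11). The remaining Gas1 probe-set, 1456322_at, stayed between 2.88 and 2.98 on all 9 arrays, near the floor. The call of 1416855_at against P3 was kept without wild type P3 replicate 2 (adjusted p = 0.0334) and lost without any other 1 of the 9 (adjusted p from 0.054 to 0.0906). It was also lost with the replicate number as a block (adjusted p = 0.0569), with the 6 arrays fitted alone (adjusted p = 0.133) and with a robust prior that follows the signal (adjusted p = 0.13). Against P5 the call was likewise kept only without wild type P3 replicate 2 (adjusted p = 0.0172), and lost without any other array (adjusted p from 0.0562 to 0.147), and it was lost with that prior (adjusted p = 0.103). Over the 16 alternatives its difference ran from -1.17 to -0.92 against P3 and from -0.79 to -0.62 against P5. Fits without 1 array called 255 to 659 of all probe-sets for the null against P3, in place of 717.

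Cdon and Boc encode related membrane proteins of the immunoglobulin family that bind Hedgehog ligands beside Ptch1. Cdon probe-set 1434957_at read 8.20, 7.86 and 8.06 in the null, 8.42, 8.48 and 8.28 in P3 and 7.80, 7.90 and 7.81 in P5. The 3 P3 arrays were above all others. Cdon fell by 0.56 (SE 0.09, adjusted p = 0.0176) from P3 to P5, a 1.47-fold decrease. The null lay 0.35 below P3 (difference -0.35, SE 0.09, 95% interval -0.58 to -0.12) without passing the test (adjusted p = 0.191). The fall with passage was no longer called without wild type P3 replicate 1 (adjusted p = 0.0705) or without P5 replicate 1, 2 or 3 (adjusted p from 0.0544 to 0.0698), with the block (adjusted p = 0.0722) or with the robust prior (adjusted p = 0.0885). The second Cdon probe-set, 1421452_at, stayed between 2.44 and 2.69.

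Boc, in contrast to the other co-receptors, overlapped between the groups on both bright probe-sets. Probe-set 1426869_at read 7.08, 6.85 and 6.73 in the null, 7.12, 6.82 and 6.94 in P3 and 6.81, 7.04 and 6.97 in P5. The null to P3 difference was -0.07 with a 95% interval from -0.36 to 0.22, and the P5 to P3 difference was -0.02 (interval -0.31 to 0.27), so a change of 2-fold lay outside both intervals. Probe-set 1427516_a_at gave -0.10 (interval -0.52 to 0.31) and -0.06 (interval -0.47 to 0.36), and 1427517_at stayed at 2.23 to 2.24. Whether Boc differed from Gas1 or Cdon in its response was not tested.

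Ptch1 is the ligand receptor that holds Smo inactive, and its own transcription is raised by the pathway. Probe-set 1428853_at read 8.87, 8.91 and 9.04 in the null, 9.19, 9.21 and 9.15 in P3 and 8.81, 8.59 and 8.93 in P5. The P3 arrays were tightly grouped (9.18 ± 0.03, SD, n = 3) and above all others. Ptch1 fell by 0.40 (SE 0.09, adjusted p = 0.0446) from P3 to P5, a 1.32-fold decrease. This call was the least secure of the 5: it was kept without P5 replicate 3 (adjusted p = 0.0322) and lost without any other 1 of the 9 arrays (adjusted p from 0.0606 to 0.141). It was lost too with the block (adjusted p = 0.0956), the 6 arrays alone (adjusted p = 0.11) and the robust prior (adjusted p = 0.172). In the null the difference from P3 was -0.25 (SE 0.09, 95% interval -0.47 to -0.03, adjusted p = 0.386). Both other Ptch1 probe-sets, 1439663_at and 1450824_at, were at 2.23 on every array, so all statements on Ptch1 rest on 1 probe-set.

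Smo encodes the membrane protein that passes the signal on when Ptch1 is bound. Probe-set 1427049_s_at read 9.24, 9.14 and 9.17 in the null, 9.42, 9.30 and 9.45 in P3 and 9.29, 9.29 and 9.31 in P5, the narrowest spread between cultures of any bright member (SD 0.0533). The null lay below P3 on every array by a small margin, -0.20 (SE 0.04, 95% interval -0.31 to -0.10), and did not pass (adjusted p = 0.0902), although without wild type P3 replicate 2 it did (difference -0.25, adjusted p = 0.0377). Probe-set 1427048_at, made from the same transcript sequence, ranged from 7.75 to 8.52 with wide overlap, at -0.07 (interval -0.64 to 0.50) for the null and -0.02 (interval -0.59 to 0.56) for P5 against P3. Probe-set 1442215_at was at 2.23 throughout.

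Gli2 encodes the main activator among the Gli factors. Probe-set 1459211_at read 7.74, 7.64 and 7.74 in the null, 8.16, 8.35 and 8.35 in P3 and 7.46, 7.35 and 7.49 in P5. The 3 groups were fully separated, with P3 highest, the null in between and P5 lowest. Gli2 fell by 0.85 (SE 0.07, adjusted p = 0.00117) from P3 to P5, a 1.8-fold decrease that was called in all 16 alternative fits, whereas the other calls on members, apart from Hhip between P5 and P3, were lost in some. In the null it fell by 0.58 (SE 0.07, adjusted p = 0.0156) against P3. That call was lost without Tgif1 null replicate 2 (adjusted p = 0.0553) and without wild type P3 replicate 3 (adjusted p = 0.0565), with the robust prior (adjusted p = 0.211), with the 6 arrays fitted alone (adjusted p = 0.0904) and with the replicate number as a block (adjusted p = 0.0858).

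The second Gli2 probe-set, 1446086_s_at, read 6.35, 6.08 and 5.88 in the null, 6.91, 6.30 and 6.68 in P3 and 5.73, 5.64 and 5.74 in P5. The group means stood in the order of the first probe-set, while the null and P3 arrays overlapped. It fell by 0.92 (SE 0.18, adjusted p = 0.028) with passage, a 1.9-fold decrease, and its null to P3 difference, -0.53 (SE 0.18), had an adjusted p of 0.342. The passage call was lost without Tgif1 null replicate 2 (adjusted p = 0.0596), without wild type P3 replicate 1 (adjusted p = 0.0785) or 3 (adjusted p = 0.0979), and without any 1 of the P5 arrays (adjusted p from 0.0782 to 0.104), as well as with the 6 arrays alone (adjusted p = 0.0623) and with the robust prior (adjusted p = 0.0759). Both probe-sets were made from the same expressed sequence, so they are not independent readings of the gene.

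Gli3, which acts mostly as a repressor when no ligand is bound, had overlapping null and P3 arrays on both bright probe-sets. Probe-set 1455154_at read 9.41, 9.05 and 9.11 in the null, 9.24, 9.06 and 9.41 in P3 and 8.93, 8.76 and 9.01 in P5. The 3 P5 arrays were below all others, but the passage difference of -0.34 (SE 0.13, 95% interval -0.66 to -0.02) had an adjusted p of 0.232. Probe-set 1456067_at ranged from 9.13 to 9.66 and overlapped in all comparisons, with differences of -0.08 for the null and 0.05 for P5 against P3. The 2 bright Gli3 probe-sets thus did not show the same passage difference, and 1450525_at was at 2.23 throughout.

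Gli1, whose RNA is commonly used as a readout of Hedgehog activity, had 1 probe-set, 1449058_at, which was at 2.23 on all 9 arrays. No comparison of Gli1 could be made, and its signal was not distinguishable from background in any group.

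Hhip encodes a membrane protein that binds Hedgehog ligands and keeps them from Ptch1. Its only bright probe-set, 1455277_at, read 4.94, 5.13 and 5.28 in the null, 5.40, 5.31 and 4.94 in P3 and 3.50, 4.06 and 4.01 in P5. The null and P3 arrays overlapped, whereas all 3 P5 arrays were lower than the other 6. Hhip fell by 1.37 (SE 0.20, adjusted p = 0.0103) from P3 to P5, and the P5 level is close enough to the floor that the 2.58-fold decrease may understate the change. The null differed from P3 by -0.10 (SE 0.20, 95% interval -0.58 to 0.38, adjusted p = 1) and was higher than P5 by 1.26 (SE 0.20, adjusted p = 0.0154). The difference from P5 was not called without Tgif1 null replicate 2 (adjusted p = 0.0573) or 3 (adjusted p = 0.0523), with the replicate number as a block (adjusted p = 0.0649) or with the 6 arrays alone (adjusted p = 0.0508). The other Hhip probe-sets were near the floor, at 2.74 to 3.85 for 1421426_at, 2.27 to 3.27 for 1437933_at and 2.36 to 2.41 for 1438083_at.

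**Figure D2:**
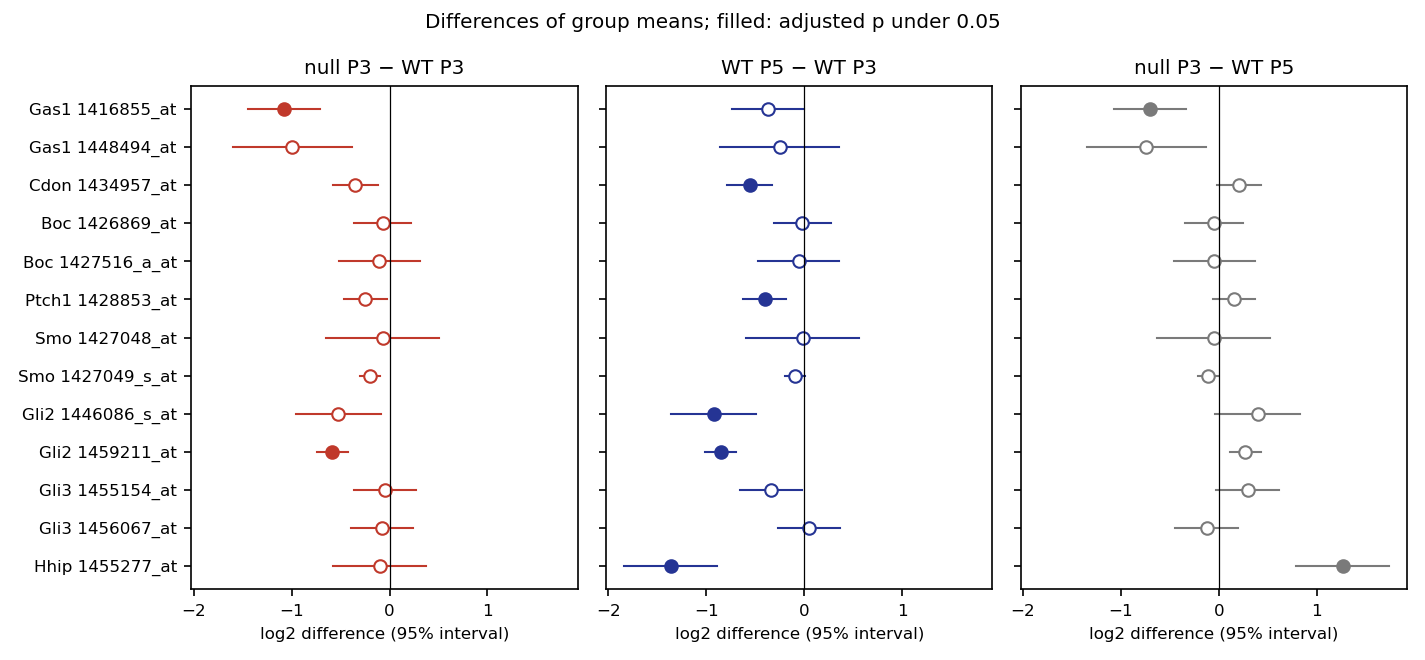
Differences of group means on the log2 scale for the 13 bright probe-sets, with 95% intervals from limma that are not adjusted for the number of probe-sets; filled points passed at an adjusted p under 0.05. Filled points are Gas1 and Gli2 for the null against P3, both Gli2 probe-sets, Cdon, Ptch1 and Hhip for P5 against P3, and Gas1 and Hhip for the null against P5.

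Across the 13 bright probe-sets, all 13 were lower in the null than in P3 and 12 were lower in P5 than in P3, the exception being Gli3 probe-set 1456067_at. Both counts rest on the same 3 P3 arrays, several genes enter with more than 1 probe-set, and 10 of the 13 null differences were 0.53 or smaller in size. The median difference was -0.20 for the null and -0.34 for P5 against P3. Over all probe-sets above 4, the medians were -0.00467 and -0.00941, and 51.1% and 51.5% of probe-sets were lower. Between the null and P5, 7 were lower and 6 higher, with a median of -0.05 beside 0.0147.

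Groups did not overlap in 6 of the 13 bright probe-sets for the null against P3, beside 24.5% of all bright probe-sets, and these were both of Gas1 and 1 each of Cdon, Ptch1, Smo and Gli2. For P5 against P3 the count was 7, beside 50.1%, and for the null against P5 it was 7, beside 47.3%. The median SD within groups was 0.167 for the bright members and 0.143 for all bright probe-sets. An exact permutation test of 3 arrays against 3 cannot give a p below 0.1, so no single probe-set can pass it.

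Other genes of the pathway were counted from 6 lists, each gene by its brightest probe-set. Of the 114 genes measured, 3 were called for the null against P3, 14 for P5 against P3 and 17 for the null against P5, beside 2.58%, 13.2% and 11.4% of all genes.

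Of the 3 ligands, Shh and Ihh were at the floor on all arrays, and Dhh, the ligand of the gonads and nerve sheaths, had a mean log2 signal of 5.15 in the null, 4.72 in P3 and 4.56 in P5. Dhh was higher in the null than in P5 by 0.59 (SE 0.13, adjusted p = 0.0477), and its difference from P3 was 0.42 (adjusted p = 0.263). No ligand gene passed the test between the null and P3, and 1 had an unadjusted p under 0.05.

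Among 11 genes that process, release or bind the ligands, Gpc3, a glypican that competes with Ptch1 for ligand, was 0.66 higher (SE 0.10, adjusted p = 0.0417) in null than in P3 cells and was also higher than in P5, by 0.56 (adjusted p = 0.0265). Disp1, which releases ligand from the producing cell, rose by 0.47 (SE 0.11, adjusted p = 0.0482) from P3 to P5. Lrp2, a large endocytic receptor that also binds Shh in the forebrain, fell by 1.38 (SE 0.16, adjusted p = 0.00437) from P3 to P5 and was higher in the null than in P5 by 1.42 (adjusted p = 0.00436). Its group means were 5.54 in the null, 5.50 in P3 and 4.12 in P5, with P5 lowest as for Hhip. Gpc6, another glypican, was lower in the null than in P5 (difference -0.41, SE 0.09, adjusted p = 0.0399).

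Among 23 genes of signal transduction, none passed between the null and P3 or between the null and P5 with limma, where 3 and 9 had an unadjusted p under 0.05. From P3 to P5, Arrb2, a beta-arrestin, fell by 0.77 (SE 0.10, adjusted p = 0.00828), and Dhcr7, the last enzyme of cholesterol synthesis, fell by 0.996 (SE 0.19, adjusted p = 0.0243). Prkar1a, a regulatory subunit of protein kinase A, rose by 0.48 (SE 0.09, adjusted p = 0.0296). The median difference of the list was -0.0107 for the null and -0.0819 for P5 against P3.

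Of 44 genes of the primary cilium, where Smo and the Gli factors act, 1 fell in the null against P3. This was Dync2h1, a motor for transport back from the cilium tip, by 0.45 (SE 0.06, adjusted p = 0.0237), with all group means near the floor (2.99 in the null and 3.44 in P3). Of the 39 cilium genes with a mean log2 signal above 4, 30 were lower in the null than in P3, with a median difference of -0.17, beside 52.0% lower and a median of -0.0101 over all genes above that signal. From P3 to P5, Rab23, a small GTPase that restrains the pathway, rose by 0.29 (adjusted p = 0.0433), as did Kifap3, a subunit of the kinesin that runs towards the tip, by 0.55 (adjusted p = 0.0435). Dync2h1 fell by 0.39 (adjusted p = 0.0113) and Rab34, needed for cilium formation, fell by 0.19 (adjusted p = 0.0471). Against P5, the null was lower in Rab23 (-0.46, adjusted p = 0.00985), in Tulp3, which carries receptors into the cilium (-0.20, adjusted p = 0.0261), and in Dync2li1 (-0.42, adjusted p = 0.033).

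Of 18 genes that Hedgehog signalling has been reported to raise in some tissues, Sfrp1, a secreted Wnt antagonist, fell by 1.20 (SE 0.12, adjusted p = 0.0107) in the null against P3. It rose by 0.63 (SE 0.12, adjusted p = 0.0223) from P3 to P5, so the null was lower than P5 by 1.83 on the log2 scale (difference -1.83, adjusted p = 0.000781). From P3 to P5, Ccnd2, a G1 cyclin, rose by 0.56 (adjusted p = 0.00404) and Foxm1, a transcription factor of mitotic genes, fell by 1.10 (adjusted p = 0.00684). Between the null and P5, 4 genes were higher in the null and 3 lower. Besides Sfrp1, those with the smallest p were Ccnd2 (-0.49, adjusted p = 0.00704), Mycn, a growth regulator (1.47, adjusted p = 0.0184, with wild type means below 4), and Igf2, a growth factor (0.57, adjusted p = 0.0188). These genes have other inputs, and the list gives no reading of Hedgehog activity by itself.

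Of 19 other genes linked to holoprosencephaly, none passed between the null and P3 with limma, and 1 had an unadjusted p under 0.05. From P3 to P5, 4 fell and 1 rose. Stil, which is needed for centriole duplication, fell by 0.78 (SE 0.07, adjusted p = 0.00226), and Smc1a, a subunit of cohesin, fell by 0.42 (adjusted p = 0.0209), while Lrp2, Dhcr7 and Disp1 belong also to the lists above. Against P5, the null was higher in Lrp2, in Stil (0.69, adjusted p = 0.00389), in Fgfr1, a receptor for fibroblast growth factors (0.68, adjusted p = 0.0335), and in Smc1a (0.38, adjusted p = 0.0353).

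**Figure D3:**
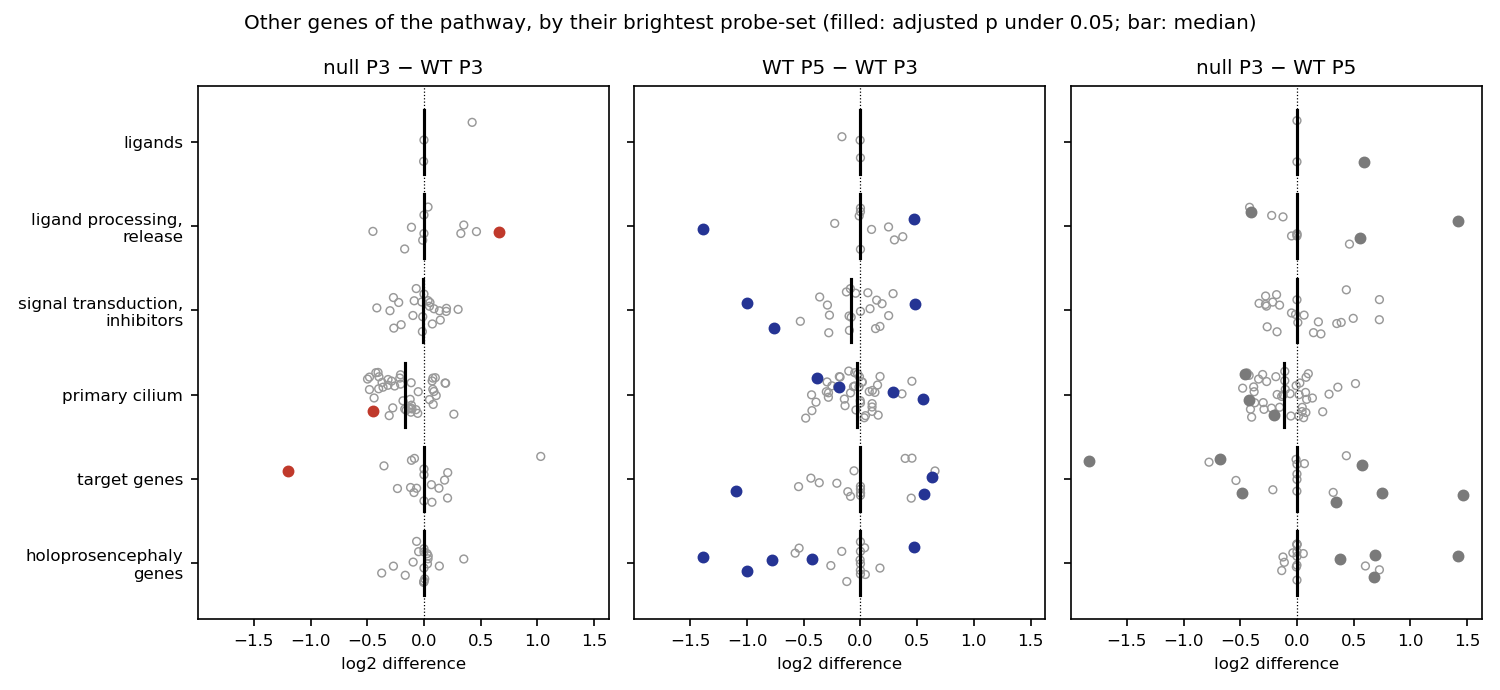
Differences of group means on the log2 scale for other genes of the pathway, 1 point per gene by its brightest probe-set, in 6 lists with the list median as a bar; filled points passed at an adjusted p under 0.05, and a gene in more than 1 list is drawn in each. Of the 114 genes, 3 are filled for the null against P3, 14 for P5 against P3 and 17 for the null against P5, and the primary cilium list has its median at -0.16 for the null against P3.

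Markers of proliferation and of other cell types moved with the groups. In bulk samples, fewer cells of a type and less RNA per cell cannot be told apart. The summed linear signal of 25 proliferation genes was 65986 to 67812 in P3, 53968 to 57128 in the null and 40398 to 41748 in P5. Of these 25 genes, 5 fell in the null against P3 and 24 fell from P3 to P5. Group means of both Gli2 probe-sets and of the bright Cdon, Ptch1 and Hhip probe-sets stood in that order of groups. So did those of Gli3 1455154_at, while the bright Gas1, Boc and Smo probe-sets and Gli3 1456067_at had another order. For Hhip and Gli3 1455154_at the null and P3 arrays overlapped. The share of all bright probe-sets with that order of group means was not counted, so whether the order is unusual cannot be said. The part of the proliferation difference in the Gli2, Cdon, Ptch1, Hhip and Gli3 results was not tested.

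Of 20 muscle markers, 11 rose in the null against P3, with sums of 4888 to 6864 in the null, 2457 to 2490 in P3 and 4503 to 5454 in P5. From P3 to P5, 7 of the 20 fell and 1 rose, and the riser, the actin gene Acta1, went from a mean log2 signal of 10.57 to 12.17 and dominates the P5 sum. Against P5, 13 were higher in the null and 1, Acta1, was lower. The muscle determination genes Myod1 and Myf5 were at the floor on all arrays. Myog, which marks differentiating muscle cells, had a mean log2 signal of 5.72 in the null, 3.54 in P3 and 2.71 in P5. Of 20 macrophage markers, 1 rose in the null against P3 and 8 were higher in the null than in P5. The riser was Ctss, with a mean log2 signal of 6.25 in the null and 4.36 in P3. All 9 with a mean above 4 were higher in the null than in P3, and 12 of the 20 were higher with an unadjusted p under 0.05. Itgam and Aif1 were at the floor and Adgre1 had group means of 2.89 to 2.98. The macrophage sums were 945 to 1469 in the null, 596 to 643 in P3 and 456 to 514 in P5. Lyz2, the brightest of the list, had the largest part in them, with means of 9.11, 8.52 and 7.97. The 8 cartilage and bone markers summed to 2941 to 4280 in the null, 1435 to 1866 in P3 and 776 to 1066 in P5, and none passed between the null and P3 with limma, where 3 had an unadjusted p under 0.05. Col2a1, with mean log2 signals of 11.66 in the null, 10.57 in P3 and 9.45 in P5, dominates these sums. From P3 to P5, 2 of the 8 fell and 1 rose, and the riser, Col10a1, went from 4.41 to 6.10. Acan had a mean of 4.03 in the null and 4.66 in P3. Null replicate 1 had the highest muscle, macrophage and cartilage sums of all arrays.

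With null replicate 1 left out, the Gas1 difference from P3 was -1.03 (adjusted p = 0.0776) and that of Gli2 was -0.60 (adjusted p = 0.0414). The part of the muscle, macrophage and cartilage markers in the Gas1 and Hhip differences was not tested. The sums of 16 fibroblast markers were 137065 to 153289 in the null, 140956 to 144220 in P3 and 171313 to 181543 in P5. Of these 16, 1 fell in the null against P3, 4 rose from P3 to P5, and 7 were lower in the null than in P5, beside the lower Gas1 of the same comparison, and their part in that result was not tested. Sums of 10 epithelial markers were 1324 to 1576, 1444 to 1602 and 817 to 962, those of 10 neural and glial markers were 936 to 1165, 810 to 1092 and 708 to 772, and those of 10 endothelial markers were 154 to 214, 176 to 199 and 144 to 154. None of these 30 genes passed between the null and P3 with limma, where 2 had an unadjusted p under 0.05.

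**Figure D4:**
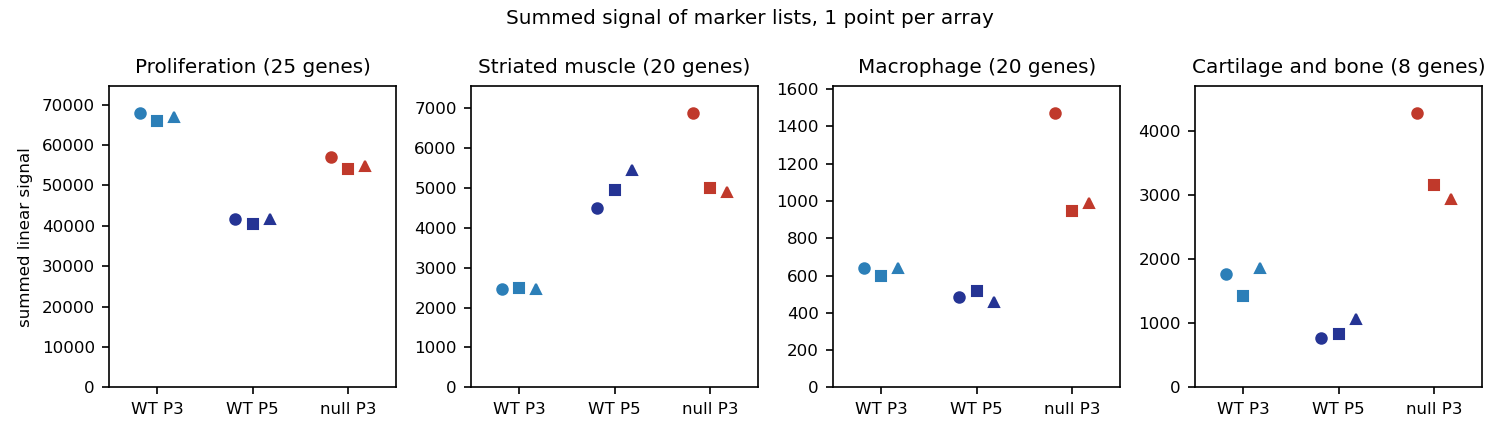
Summed linear signal of 4 marker lists on each array, 1 point per array (circle, square and triangle for replicates 1, 2 and 3), with axes from 0. Proliferation markers are highest in wild type P3 and lowest in wild type P5, and Tgif1 null replicate 1 is the highest array for muscle, macrophage and cartilage and bone markers.

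Genes whose signal followed that of the 3 most variable members over the 9 arrays are given as a description, without a test, among 1334 genes with a mean of at least 6 and a range of at least 1, or 1333 for Gas1. For Hhip they were Arhgap19 (r = 0.966), Zic1 (r = 0.966), a transcription factor of neural and muscle precursors, and Zdbf2 (r = 0.960). For Gas1 they were Ezr (r = 0.934), which links membrane to cytoskeleton, Mccc2 (r = 0.923) and Tmem87a (r = 0.921). For Gli2 they were Krt7 (r = 0.983), a keratin of simple epithelia, Lig1 (r = 0.972), the DNA ligase of replication, and Hmgb2 (r = 0.972), a chromatin protein of dividing cells. The 9 points are 3 groups of 3 arrays, so they are not independent of one another.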

How the data were processed

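RNA from 9 MEF cultures was measured on Affymetrix arrays, 1 per culture. The values deposited by the authors are log2 signals from GCRMA, which corrects for background, equalises the arrays and summarises probe-sets, so that weak signals are compressed towards a floor. The submitters' processing notes name GCRMA and limma, with versions not given in the sources used here. No further normalization was applied, and the number of arrays sets the precision. The authors' tables of their own comparisons were not used.

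Probe-sets were named through a mouse gene table of assembly GRCm38.p6, with 34958 matched to 1 symbol, 932 to several and 9211 not named. Members and lists were chosen with earlier results of these data known, and 15 list entries were not matched. In lists, a gene was counted by its brightest probe-set.

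Group means were fitted with limma 3.58.1 in R 4.3.3 (lmFit, eBayes at defaults) over the 9 arrays, and the 3 comparisons were tested two-sided with Benjamini-Hochberg adjustment across 45101 probe-sets. The prior had 0.345 degrees of freedom beside 6 residual ones. The fit was tested on simulated data with independent noise and with changes set only in probe-sets above a mean of 6. That check does not cover changes in weak probe-sets or cultures that vary together. Named genes were all members, up to 4 called genes of each pathway list and comparison with the smallest p, and the 3 genes most alike for each of 3 members. Marker genes are named as members of their lists. Alternatives were a robust prior following the signal, the study's thresholds (p under 0.0001 and a log2 difference of at least 0.5) applied to the moderated F p, a choice made here because the methods do not say which p was used, filters above 4 or 6 on at least 3 arrays, quantile normalization, median centring, a replicate block, the 6 arrays of each comparison alone, and each array left out.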

Additional observations from a re-analysis of the deposited data

How the results depend on the processing

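Of the called member probe-sets (2 for the null against P3, 5 for P5 against P3 and 2 for the null against P5), Gli2 1459211_at for P5 against P3 passed under every alternative, Hhip for P5 against P3 passed in all 15 fits but not under the F rule (F p with the study's thresholds), and the others were lost under some fits. The respective counts were 0, 2 and 1 with the robust prior, 1, 1 and 0 with the F rule, and 0, 3 and 1 with the 6 arrays alone, and the filter above 4 gave 4 for the null against P5. With the replicate number as a block they were 0, 3 and 1. Whether equal replicate numbers pair the cultures of 2 groups cannot be told from 3 arrays per group. Correlations of deviations between equal numbers were from -0.491 to 0.395, with 4 of 9 pairs above 0.1. Where the null to P3 count was 0, 5 (robust prior), 7 (block) and 6 (6 arrays alone) of 24 had an unadjusted p under 0.05. With each array left out, the counts ran from 0 to 3, from 2 to 4 and from 0 to 2. The null to P3 count was 0 without Tgif1 null replicate 2 or wild type P3 replicate 3 (5 of 24 with an unadjusted p under 0.05 in each), and the null to P5 count was 0 without Tgif1 null replicate 2 or 3 (4 of 24 in each). Over all probe-sets, the null to P3 calls were then 325 and 345, in place of 717. The null to P5 calls were 2075 and 2420, in place of 3258. Totals for the other settings are given in the next paragraph.

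Among the other pathway genes (3, 14 and 17 called), the counts were 0, 4 and 6 with the robust prior, 1, 2 and 2 with the F rule and 0, 7 and 5 with the block. The filters above 4 and above 6 gave 8 and 5 for the null against P3 and 31 and 26 for the null against P5, from fewer probe-sets tested and another prior. The 6 arrays alone gave 0 and 7 for those comparisons. At the counts of 0, 15 (robust prior), 24 (block) and 16 (6 arrays alone) of 114 had an unadjusted p under 0.05. With each array left out the counts ran from 1 to 3, from 6 to 19 and from 5 to 15. Over all probe-sets the robust prior called 59, 1297 and 1071 and the block 141, 2247 and 1763, in place of 717, 3889 and 3258. The 6 arrays alone called 123, 2957 and 2025. The filter above 4 called 1563, 6035 and 5246, and the filter above 6 called 1474, 5426 and 4677. With each array left out these totals ran from 255 to 659, from 2076 to 4161 and from 1753 to 3343. The F rule was not counted over all probe-sets.

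Differences that changed sign with an array left out were all small and not called. For Boc 1426869_at they ran from -0.17 to 0.0096 (null against P3), -0.0904 to 0.0591 (P5 against P3) and -0.15 to 0.0291 (null against P5), and for Boc 1427516_a_at from -0.25 to 0.0166, -0.19 to 0.0639 and -0.20 to 0.0376. For Smo 1427048_at they ran from -0.30 to 0.0477, -0.21 to 0.0835 and -0.28 to 0.0644. For Gli3 1455154_at the null to P3 range was -0.16 to 0.0388, and for Gli3 1456067_at the ranges were -0.18 to 0.0612, -0.0135 to 0.0937 and -0.23 to 0.0103. The causes were not tested.

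Quantile normalization and median centring left the member counts within 1 of those given, and no called member changed sign under any alternative. The filter above 6 has no value for Hhip. Signal over background limits Gli1 and the 10 other probe-sets below a mean of 4, where a decrease is compressed or, at the floor, cannot be seen, and 3 cultures per group limit the size of difference that can be called.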
